A study of Mus musculus with 8 samples.

Results

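The Klf genes encode Krüppel-like factors, a family of zinc finger transcription factors, and 10 of them were chosen by symbol from the 50903 mouse genes quantified: Klf2, Klf3, Klf4, Klf5, Klf6, Klf9, Klf10, Klf13, Klf16 and Klf17. The table held 17 genes with a Klf symbol in all, so that 7 others served for comparison. RNA-seq was done in E14 mouse embryonic stem cells (ESCs) kept in LIF/2i, that is, with the cytokine LIF and inhibitors of the kinases MEK and GSK3. BAZ2A is a chromatin-bound protein whose TAM domain binds RNA. 4 libraries came from cells with a Flag and HA tagged wild-type BAZ2A transgene (ESC + F/H-BAZ2Ar WT, here WT) and 4 from cells whose tagged transgene lacked the TAM domain (ESC + F/H-BAZ2Ar ΔTAM, here ΔTAM). In both groups the transgene resisted siRNA, had been inserted by PiggyBac transposase and selected with puromycin, the cells had received siRNA against the endogenous Baz2a, and they were collected 3 days after transfection. Each line was isolated as a single-cell clone, so that the deletion and the clone cannot be told apart.

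All Krüppel-like factors share C-terminal zinc fingers that recognise GC-rich sequences such as CACCC elements and GC boxes, and they differ in their N-terminal parts, which recruit coactivators or corepressors. In ESCs Klf2, Klf4 and Klf5 belong to the transcription factor network of naive pluripotency. Klf4 is a target of STAT3 downstream of LIF, KLF2 protein is stabilised when MEK is inhibited, and Klf5 also acts in the trophectoderm and inner cell mass of the early embryo. Klf17 is best known from oocytes and early embryos.

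To see whether the members' own promoters hold the letters their family recognises, the 250 bases before the annotated start were read from RefSeq (GRCm38.p6) for 7 of the 10 members; Klf5, Klf10 and Klf16 had no entry. Shown here are Klf4 and Klf9, the 2 members with the largest changes between the groups, and Klf2, the member next below Klf4 in level in WT, which was not called. Capitals mark GGGCGG (a GC box), GGGNGTGG (a Klf box) and TTCNNNGAA (a STAT motif), each on either strand, and sequences run 5′ to 3′ on the strand of the gene.
Klf4, minus strand, chr4:55532476-55532725: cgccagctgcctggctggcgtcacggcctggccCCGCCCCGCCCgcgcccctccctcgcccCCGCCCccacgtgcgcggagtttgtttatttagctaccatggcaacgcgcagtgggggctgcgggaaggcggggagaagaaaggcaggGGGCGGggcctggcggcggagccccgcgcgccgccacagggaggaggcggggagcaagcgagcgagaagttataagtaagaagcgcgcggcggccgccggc
Klf9, plus strand, chr19:23140976-23141225: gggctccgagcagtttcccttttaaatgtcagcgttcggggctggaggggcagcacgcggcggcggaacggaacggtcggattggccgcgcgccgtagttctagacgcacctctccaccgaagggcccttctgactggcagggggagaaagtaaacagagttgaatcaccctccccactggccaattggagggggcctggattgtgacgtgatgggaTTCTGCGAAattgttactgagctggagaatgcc
Klf2, plus strand, chr8:72318812-72319061: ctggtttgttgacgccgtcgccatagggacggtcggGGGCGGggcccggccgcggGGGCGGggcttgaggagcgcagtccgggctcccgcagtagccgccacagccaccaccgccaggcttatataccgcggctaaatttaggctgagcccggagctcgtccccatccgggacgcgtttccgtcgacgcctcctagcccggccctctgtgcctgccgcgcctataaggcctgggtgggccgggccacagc

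The Klf4 window held 4 GC boxes and the Klf2 window 2, whereas the Klf9 window held none and was the only one of the 7 with a STAT motif. GC boxes were present in 6 of the 7 windows, with the most, 6, before Klf3, while 32.7% of the 32851 RefSeq windows of the same length held one. The Klf box was found before Klf13 (2 matches, of which 1 overlapped a GC box) and Klf17 (1 match), against 15.9% of all windows. The STAT motif stood in 7.02% of all windows. The members' windows had a GC content from 52.0% (Klf17) to 78.4% (Klf3), compared with a median of 52.4% over all windows. These matches describe the letters of the windows only. No binding of a factor was measured.

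Reads on genes numbered 7273095 to 7705522 in the WT libraries and 6578276 to 8686712 in the ΔTAM libraries. The deposited unit is RPKM, reads per kilobase of a gene's genomic span, scaled to the depth of the library. Of the ESC markers Pou5f1, Sox2, Nanog, Zfp42 and Esrrb, each had at least 1804 reads in every library, whereas 6 of 8 fibroblast markers, among them Col1a1 and Thy1, had fewer than 10 reads in every library and 3 had none. Baz2a, counted from the endogenous gene and the transgene together, was 10.5 ± 0.529 RPKM (SD, n = 4) in WT and 18.3 ± 0.824 RPKM (SD, n = 4) in ΔTAM, a log2 fold change of 0.79 (limma, adjusted p = 3.4e-05). Whether the unequal Baz2a RNA levels have a part in the Klf differences was not tested. In bulk RNA, fewer cells that express a gene and less RNA per cell cannot be told apart. Nothing states that the replicates were separate cultures, so that p-values measure the spread between these libraries, which may be technical.

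To compare levels between members, recovered reads were divided by the length of each gene's merged exons and by the reads on genes, since RPKM over the genomic span lowers genes with long introns: exons make up 70.4% of the span of Klf2 but 14.3% of that of Klf13. On this exon scale (RPKM over exons, scaled to the reads on genes), Klf4 was the highest member in WT with 130.9 ± 1.71 (SD, n = 4), followed by Klf2 with 92.9 ± 5.19 and Klf5 with 34.6 ± 0.961. Then came Klf9 at 25.2 ± 0.495, Klf10 at 22.3 ± 1.56, Klf16 at 21.7 ± 1.01, Klf13 at 15.2 ± 0.450, Klf6 at 13.8 ± 0.703 and Klf3 at 12.3 ± 0.443. The deposited coordinates of Klf9 differ from those of the GENCODE vM21 annotation used for exon lengths, so that its place on this scale is less certain. The ranges of neighbours in this order over the 4 WT libraries did not overlap except for Klf10 and Klf16 and for Klf13 and Klf6. In ΔTAM, Klf2 at 100.0 ± 9.45 and Klf4 at 99.3 ± 2.20 overlapped at the top, followed by Klf5 at 31.3 ± 1.27. Klf16 (25.0 ± 0.991) stood above Klf10 (22.2 ± 1.05) and Klf9 (20.2 ± 0.409), with no overlap between these neighbours. Klf13 (15.5 ± 0.262) followed without overlap, and Klf6 (11.9 ± 0.910) and Klf3 (11.2 ± 0.333) overlapped.

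**Figure D1:**
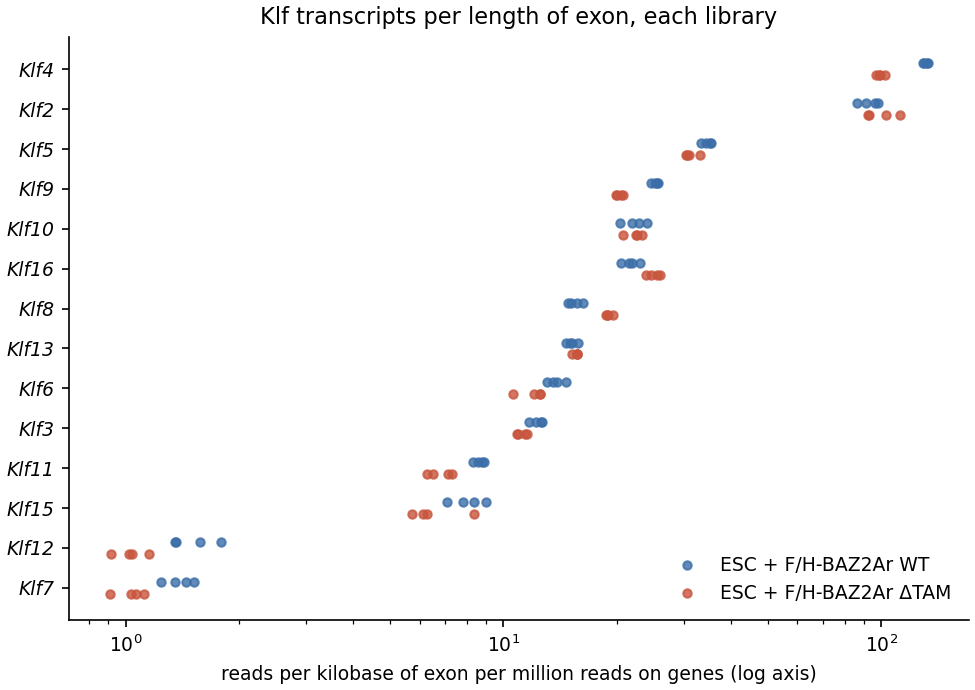
Levels of 14 Klf genes in each library, as RPKM over exons scaled to the reads on genes, on a log axis; each point is 1 library, blue for WT and red for ΔTAM. In WT, Klf4 stood above Klf2 in every library, and in ΔTAM the points of both genes overlapped around 100.0.

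To determine how the members differed between the groups, log2(RPKM + 0.1) was compared with limma over the 9003 genes whose mean was at least 0.1 RPKM, and genes with a Benjamini-Hochberg adjusted p under 0.05 were called. All members but Klf17 passed the filter. Klf3, Klf4, Klf5, Klf6 and Klf9 were lower in ΔTAM, Klf16 was higher, and Klf2, Klf10 and Klf13 were not called. Thus 5 of 9 members were called lower, while 16.0% of all genes tested were lower, and 1 of 9 was called higher, while 19.9% of all genes were higher. The members' median log2 fold change was -0.12, beside 0.011 over all genes tested. The largest change among the members was that of Klf4, which fell by 24.0%. Without WT replicate 1, 3 or 4 or ΔTAM replicate 2 or 4, 3 members were called lower, and without any 1 of the other libraries 4 were. The size of a log2 fold change on this scale depends on the pseudocount for low genes: with 1 RPKM in place of 0.1 RPKM the same members were called, but Klf9 was -0.12, Klf6 -0.099, Klf5 -0.085, Klf3 -0.053 and Klf16 0.098, whereas Klf4 was -0.36.

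**Figure D2:**
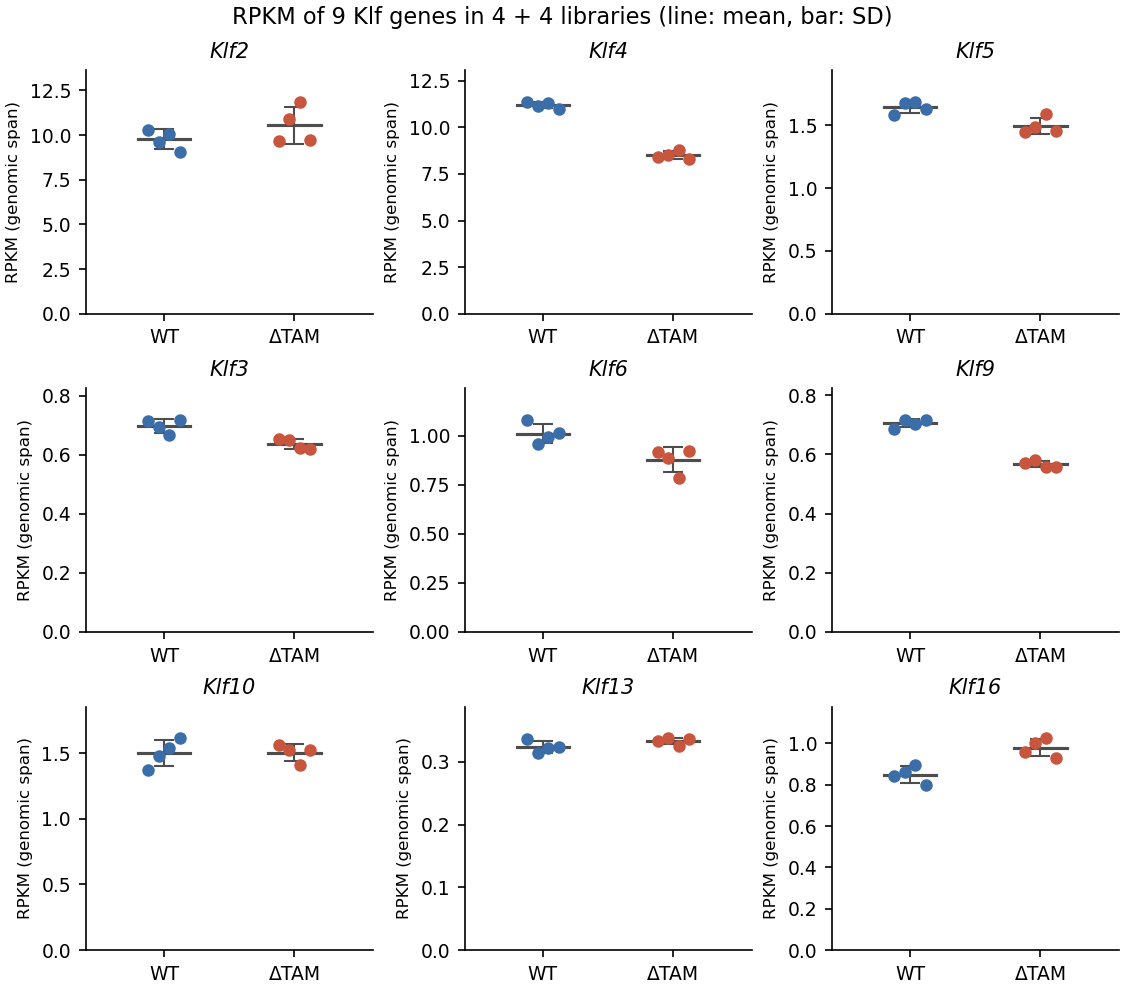
RPKM of the 9 members that passed the filter, with 1 panel per gene and axes from 0; points are the 4 WT (blue) and 4 ΔTAM (red) libraries, lines the means and bars the SD. Klf4 and Klf9 show the widest gaps between the groups, and the 4 ΔTAM libraries of Klf16 sit above all WT libraries.

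Of the naive pluripotency factors, Klf4 (chr4:55527143-55532466) is widely used to reprogram somatic cells to pluripotency. Its RPKM was 11.4, 11.1, 11.3 and 10.98 in WT replicates 1 to 4 and 8.40, 8.52, 8.79 and 8.31 in the ΔTAM replicates. All ΔTAM libraries were thus below all WT libraries. The log2 fold change was -0.39 (SE 0.025, limma adjusted p = 4.5e-05), and it stayed called when any 1 library was left out.

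Klf5 (chr14:99298691-99315036) had RPKM values of 1.58, 1.68, 1.68 and 1.63 in WT and of 1.45, 1.48, 1.59 and 1.45 in ΔTAM. The groups overlapped through ΔTAM replicate 3, and the other 3 ΔTAM libraries were below all WT libraries. Its log2 fold change was -0.13 (SE 0.036, limma adjusted p = 0.0246). The call was lost without WT replicate 2 or 3 or without ΔTAM replicate 1, 2 or 4, with limma adjusted p-values from 0.00994 to 0.0668 when single libraries were left out.

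Klf2 (chr8:72319033-72321656) had 10.3, 9.61, 10.1 and 9.04 RPKM in WT and 9.68, 10.9, 11.9 and 9.73 RPKM in ΔTAM. The ΔTAM libraries were more spread than the WT libraries, and 2 of them lay above all WT values. The log2 fold change of 0.11 (SE 0.074, limma adjusted p = 0.298) did not pass the test, and its 95% interval ran from -0.064 to 0.28. Klf2 showed no fall of the size seen for Klf4, whose interval was -0.45 to -0.33.

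Because Klf2, Klf4 and Klf5 act in the same network, their ratios were compared within each library, where the scaling between libraries cancels out. The log2 ratio of Klf4 to Klf2 RPKM was 0.14, 0.21, 0.16 and 0.28 in WT and -0.20, -0.35, -0.43 and -0.23 in ΔTAM. On this scale of genomic span it was above 0 in all WT libraries and below 0 in all ΔTAM libraries, a difference of -0.50. The sign depends on the length used, but the difference between the groups does not. Over exons, Klf4 stood above Klf2 in ΔTAM replicates 1 (98.7 and 92.5) and 4 (97.0 and 92.4) and below it in replicates 2 and 3. The log2 ratio of Klf4 to Klf5 went from 2.77 ± 0.051 (SD, n = 4) to 2.51 ± 0.029, and that of Klf5 to Klf2 from -2.57 ± 0.099 to -2.82 ± 0.084, a difference of -0.25 in each case. The groups did not overlap for any of the 3 ratios. Ratios of other gene pairs were not tested, and of the 9003 single genes 16.7% were lower and 20.5% higher without overlap. A two-sided exact permutation test gave p = 0.0286 for each of the 3 ratios, adjusted p = 0.0286 over the 3 ratios. That is the smallest p that 4 against 4 libraries allow. The ratios are not independent of each other, since each gene enters 2 of them.

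**Figure D3:**
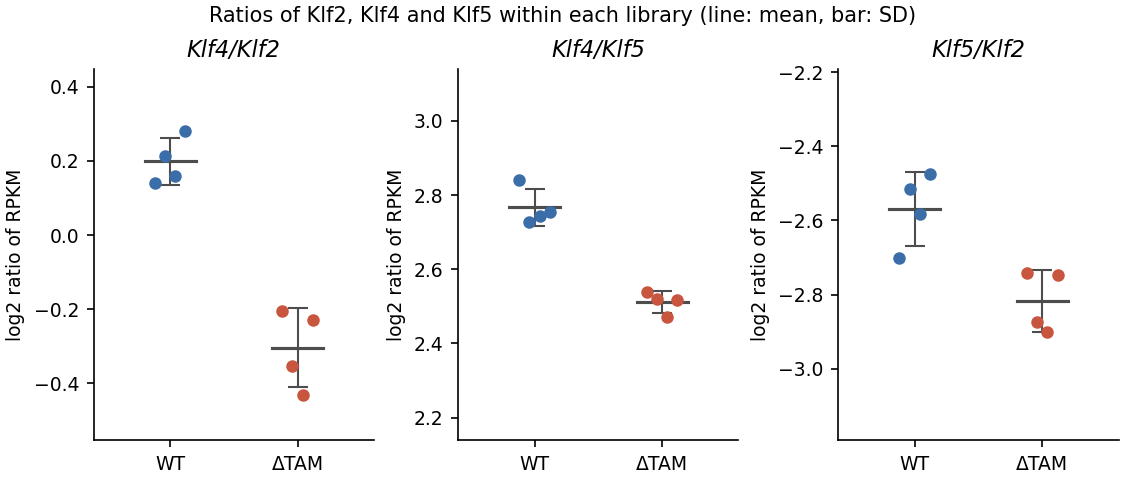
Log2 ratios of RPKM between Klf4, Klf2 and Klf5 within each library; points are the 4 WT (blue) and 4 ΔTAM (red) libraries, lines the means and bars the SD, and each axis covers the same length of log2 units. All WT points lie above all ΔTAM points in each panel, and the Klf4 to Klf2 ratio shows the widest gap, -0.50.

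Next were the members that act mainly as repressors or respond to outside signals. Klf9 (chr19:23141226-23166911) is induced by glucocorticoids and thyroid hormone and can bind the corepressor SIN3A. It had 0.687, 0.714, 0.703 and 0.715 RPKM in WT and 0.570, 0.582, 0.559 and 0.558 RPKM in ΔTAM. Both groups were tight and lay apart, with a fall of 19.5% and a log2 fold change of -0.27 (SE 0.024, limma adjusted p = 1.7e-04). The call held when any 1 library was left out.

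Klf3 (chr5:64803388-64832901), a repressor that works through the corepressor CTBP, had 0.716, 0.693, 0.666 and 0.718 RPKM in WT and 0.653, 0.651, 0.624 and 0.620 RPKM in ΔTAM. The groups did not overlap, but only a small gap separated WT replicate 3 from ΔTAM replicate 1. The log2 fold change was -0.12 (SE 0.031, limma adjusted p = 0.0227). The call was lost without WT replicate 1 or 4 or without ΔTAM replicate 3 or 4, with limma adjusted p-values from 0.0160 to 0.0625 over the 8 such fits.

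Klf6 (chr13:5861482-5870394), an activator with a part in cell growth, had 1.08, 0.959, 0.993 and 1.01 RPKM in WT and 0.916, 0.889, 0.783 and 0.922 RPKM in ΔTAM. All ΔTAM libraries were below all WT libraries, and ΔTAM replicate 3 was the lowest. The log2 fold change was -0.19 (SE 0.055, limma adjusted p = 0.0332). This call was lost without WT replicate 1, 3 or 4 or without ΔTAM replicate 2, and also when genes of every level were tested (limma adjusted p = 0.0699). Over the 8 fits without 1 library, limma adjusted p-values ran from 0.0398 to 0.0819.

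Klf16 (chr10:80567124-80577321), like Klf9 and Klf13 a small factor that can repress through SIN3A, was the one member called higher. Its RPKM was 0.840, 0.861, 0.898 and 0.798 in WT and 0.959, 1.003, 1.02 and 0.932 in ΔTAM. All ΔTAM libraries were above all WT libraries. The rise was 15.3%, with a log2 fold change of 0.19 (SE 0.042, limma adjusted p = 0.0111), and it stayed called without any 1 library.

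Klf10 (chr15:38291463-38300706), an early TGFβ response gene, had 1.37, 1.48, 1.54 and 1.61 RPKM in WT and 1.56, 1.52, 1.41 and 1.52 RPKM in ΔTAM. The ΔTAM values lay within the range of the WT values. The log2 fold change of 0.0038 (SE 0.052, limma adjusted p = 0.963) had a 95% interval from -0.12 to 0.13, and its sign turned negative with median-ratio scaling and quantile normalization.

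Klf13 (chr7:63886351-63938915), known from T cells and heart, had 0.336, 0.314, 0.322 and 0.324 RPKM in WT and 0.333, 0.337, 0.326 and 0.336 RPKM in ΔTAM. The groups overlapped, and the log2 fold change of 0.031 (SE 0.025, limma adjusted p = 0.382) had a 95% interval from -0.028 to 0.090.

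Klf17 (chr4:117757836-117765648) was at the limit of detection. It had 1 read in WT replicates 1 and 4 and in ΔTAM replicate 3 and 0 reads in the other 5 libraries. At this depth 0 reads allow up to 0.00877 RPKM, counting error alone, in the shallowest library. A difference between the groups was not detectable.

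The groups did not overlap for 4 members that were lower (Klf3, Klf4, Klf6 and Klf9), while 16.7% of all 9003 genes were lower without overlap, and for 1 member that was higher (Klf16), while 20.5% of all genes were higher without overlap. Entries that share bases with a member took few reads: at most 10 for any entry that overlaps Klf3, 3 for Klf13 and 1 for Klf9, in any library, beside at least 655 reads for each of these members.

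Because the RPKM steps gave back whole reads for 99.8% of values above 0, the comparison was repeated on those reads with limma voom over 12660 genes. The same 5 members were lower and Klf16 was higher, while 21.9% of all genes were lower and 21.9% higher. The voom log2 fold changes were -0.39 for Klf4, -0.31 for Klf9, -0.21 for Klf6, -0.14 for Klf5, -0.13 for Klf3 and 0.21 for Klf16, with adjusted p-values from 1.9e-09 (Klf4) to 0.0137 (Klf3). Klf4, Klf5, Klf9 and Klf16 kept their calls when any 1 library was left out of the voom fit, whereas Klf3 lost its call without ΔTAM replicate 4 (adjusted p = 0.0533) and Klf6 without ΔTAM replicate 3 (adjusted p = 0.0718). Klf2, at 0.11 (adjusted p = 0.110), was called higher in 2 of those 8 voom fits, those without ΔTAM replicate 1 or 4.

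**Figure D4:**
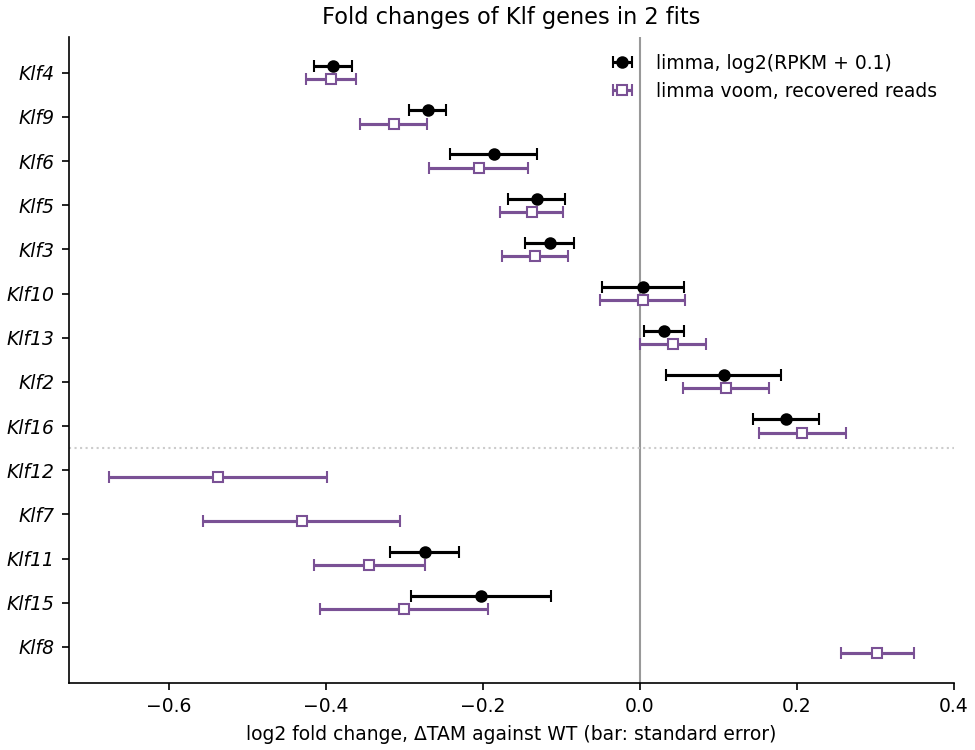
Log2 fold changes of 14 Klf genes, ΔTAM against WT, with bars for the standard error; filled points are limma on log2(RPKM + 0.1), open squares limma voom on recovered reads, and the dotted line separates the members from the other Klf genes. Klf4 and Klf9 lie farthest below 0 among the members, and Klf7, Klf8 and Klf12 have only a voom value because they were under the RPKM filter.

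The other Klf genes were examined with the same tests. Klf11, a TGFβ-inducible relative of Klf10, was lower, with 0.494, 0.501, 0.467 and 0.478 RPKM in WT and 0.409, 0.404, 0.355 and 0.368 RPKM in ΔTAM. The groups lay apart, and the log2 fold change was -0.27 (SE 0.044, limma adjusted p = 0.00236). Klf15, a metabolic regulator of muscle and liver, had a log2 fold change of -0.20 that did not pass the test (limma adjusted p = 0.118), and its voom value of -0.30 passed (adjusted p = 0.0269) but was lost in 5 of 8 fits without 1 library, those without WT replicate 2 or 3 or ΔTAM replicate 2, 3 or 4 (adjusted p up to 0.123).

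The spans of Klf7, Klf8 and Klf12 are long, and their RPKM fell under the filter although their reads did not. Klf8, which lies on the X chromosome, was higher, with 0.0794, 0.0729, 0.0738 and 0.0765 RPKM in WT and 0.0952, 0.0921, 0.0925 and 0.0928 RPKM in ΔTAM (voom log2 fold change 0.30, adjusted p = 1.7e-05, 570 to 855 reads). Klf7, known from neurons, and Klf12, a CTBP-binding repressor, had fewer reads, 57 to 95 and 42 to 91. Both were lower, with voom log2 fold changes of -0.43 (SE 0.13, adjusted p = 0.00797) and -0.54 (SE 0.14, adjusted p = 0.00329). With genes of every level tested on the RPKM scale, limma did not call Klf12 (adjusted p = 0.0795). In each of these 3 genes the groups did not overlap, and the voom call held without any 1 library. Of all 14 Klf genes that voom tested, 9 were lower (Klf15 among them), 2 were higher and 3 were not called, while 21.9% of the 12660 genes were lower and 21.9% higher. Klf1 with 1 to 5 reads and Klf14 with 0 to 3 reads in a library were too low to test.

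The Sp factors are the closest relatives of the Klf family and bind similar GC-rich sites. Among the 9 Sp genes, 4 were tested and 1 was called, while 19.9% of all genes tested were higher and 16.0% lower. Sp5, a target of Wnt and β-catenin signalling, rose from 1.58 ± 0.114 to 2.61 ± 0.247 RPKM (SD, n = 4), a log2 fold change of 0.69 (SE 0.077, limma adjusted p = 4.8e-04). Sp1 (-0.019), Sp2 (0.018) and Sp3 (0.076) had log2 fold changes with limma adjusted p-values of 0.224 or more. Sp4, under the filter, had a voom value of 0.17 (adjusted p = 0.307), and Sp6, Sp7, Sp8 and Sp9 had at most 7 reads in any library.

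Among 19 genes of the signals upstream of Klf genes (LIF and STAT3, TGFβ, glucocorticoid and thyroid hormone receptors and others), 11 were tested, of which 2 were higher, 2 were lower and 7 were not called, with a median log2 fold change of 0.041. These counts are near the shares of all genes tested, 19.9% higher and 16.0% lower. Socs3, a feedback inhibitor of LIF signalling and a STAT3 target, fell from 6.46 ± 0.260 to 5.16 ± 0.282 RPKM (SD, n = 4; log2 fold change -0.32, limma adjusted p = 0.00157). Smad7, the inhibitor of TGFβ signalling, fell from 0.720 ± 0.0344 to 0.459 ± 0.0259 RPKM (-0.55, limma adjusted p = 1.1e-04). Il6st, a subunit of the LIF receptor, and Stat3 were called higher by 0.092 each on the log2 scale (limma adjusted p = 0.0295 and 0.0306). On the RPKM scale these small changes were not called under median-ratio scaling or quantile normalization, and the call was lost in 7 of 8 fits without 1 library for Il6st (limma adjusted p up to 0.0742) and in 6 of 8 for Stat3 (up to 0.0817). On recovered reads, voom called both higher (adjusted p = 0.0258 for Il6st and 0.0194 for Stat3), tested 17 genes of the list and called 6 of them higher and 6 lower, with a median of -0.020. Of all genes, voom called 21.9% higher and 21.9% lower. Il6st and Stat3 were named after their values had been seen.

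Of 12 genes for cofactors of Klf proteins, 10 were tested, 3 were higher and 2 were lower, with a median log2 fold change of 0.039. Of all genes tested, 19.9% were higher and 16.0% lower. The histone deacetylase Hdac1 was higher (0.30, limma adjusted p = 3.7e-04), as were the acetyltransferases Ep300 (0.16, adjusted p = 0.0244) and Kat2b (0.14, adjusted p = 0.0195). Ctbp1, which encodes a corepressor of KLF3 and KLF12, was lower (-0.20, limma adjusted p = 0.0158), and so was Hdac2 (-0.10, limma adjusted p = 0.0381). The calls of Ep300, Kat2b and Hdac2, genes named after their values had been seen, were lost in 4, 4 and 7 of 8 fits without 1 library (limma adjusted p up to 0.0620, 0.0539 and 0.0970). With genes of every level tested, Ep300 (adjusted p = 0.0503) and Hdac2 (adjusted p = 0.0558) were not called either. Voom tested all 12 genes and called 6 higher and 2 lower, beside 21.9% higher and 21.9% lower of all genes.

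While 19.9% of all genes tested were higher and 16.0% lower, the 16 other genes of the naive network were divided. Of these, 6 were higher, 6 lower and 4 not called, with a median of -0.012. The largest changes among them were those of Dppa3, a maternal factor, which rose by 1.79 (limma adjusted p = 9.0e-06), and of Lefty1, a Nodal inhibitor, which rose by 0.96 (adjusted p = 1.8e-04). The others called higher were Prdm14, Sall4, Fbxo15 and Nr0b1, and the 6 called lower were Sox2, Esrrb, Tbx3, Nr5a2, Tcl1 and Mycn. Among 15 immediate early genes 8 were tested, and 1, Junb, was higher (0.61, limma adjusted p = 0.00859) with a list median of 0.042. Voom tested 11 of them and called 1 higher and 2 lower, with a median of -0.037, beside 21.9% higher and 21.9% lower of all genes.

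Markers of other cell states were read beside the Klf genes. Of all genes tested, limma called 19.9% higher and 16.0% lower, and voom called 21.9% higher and 21.9% lower. All 8 tested genes of 15 known from 2-cell-like cells, a rare state in ESC cultures, were higher, among them Zscan4a (1.73) and Tcstv3 (1.65), and the summed RPKM of the list was 0.558 to 0.738 in WT and 3.29 to 3.69 in ΔTAM. Voom tested 12 of the list and called 12 higher, with larger log2 fold changes of 2.45 for Zscan4a and 2.40 for Tcstv3. Tcstv3 had only 5 to 7 reads in the WT libraries. The summed RPKM of 10 primed pluripotency markers was 3.04 to 3.29 in WT and 3.06 to 3.44 in ΔTAM, and 1 of 5 tested, Dnmt3b, was higher (0.54), while voom called 3 of 7 higher. The median log2 fold change of the primed markers was nevertheless below 0, at -0.093 with limma and -0.053 with voom. For 9 primitive endoderm markers it was 0.427 to 0.446 and 0.227 to 0.273, where the only gene tested, Lama1, was lower (-0.76) and made up most of the sum (0.369 to 0.392 and 0.178 to 0.201 RPKM), voom called 2 of 3 lower, and Sox7 and Foxa2 had fewer than 10 reads in every library. For 9 trophectoderm markers it was 1.61 to 1.69 and 1.52 to 1.89, with Tfap2c higher (0.19) and Krt18 (-0.44) and Eomes (-0.26) lower, and Elf5 and Hand1 under 10 reads, while voom called 2 of 6 higher and 3 lower. The calls of Krt18 and Eomes were lost in 7 and 6 of 8 fits without 1 library (limma adjusted p up to 0.104 and 0.0901) and when genes of every level were tested (adjusted p = 0.0964 and 0.0764). The summed RPKM of the fibroblast markers was 0.100 to 0.113 and 0.0931 to 0.131. The part of these lists in the Klf differences was not tested.

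Finally, the genes whose profile over the 8 libraries was most like that of Klf4, Klf2 and Klf5 were sought among the other 2150 genes that averaged 1 RPKM or more, by the mean absolute difference of log2 values centred per gene. For Klf4 they were Gars (0.014), Gtsf1l (0.024) and Hmox1 (0.027), a glycyl-tRNA synthetase, a germline-type zinc finger gene and haem oxygenase, with log2 fold changes of -0.39, -0.34 and -0.41. For Klf2 they were Chchd2 (0.027), Sap30 (0.031) and Phlda3 (0.037). For Klf5 they were Ncaph2 (0.011), Fzd5 (0.023) and Hat1 (0.024). These distances describe the same 8 libraries, whose depth and group the genes share.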

How the data were processed

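Poly(A) RNA was sequenced from 8 E14 libraries, 4 per group. The authors removed ribosomal reads (SortMeRNA), trimmed the rest (Trimmomatic), aligned them with STAR to the mm10 genome and deposited 1 table of RPKM values. The library kit marks strand, but whether counting used it is not given in the sources used here. RPKM proved to be per kilobase of each gene's start-to-end span. The submitters' processing notes give Trimmomatic version 0.36.

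Of 51288 entries, 385 further entries of a repeated symbol were set aside (the one on a main chromosome, or with the highest mean, was kept). Dividing RPKM by the value of 1 read in each library gave whole reads, within 0.05, for 99.8% of values above 0. Exon lengths came from the GENCODE vM21 annotation, with whose coordinates 90.6% of entries agreed exactly (Klf9, alone among the members, did not). Log2(RPKM + 0.1) was fitted with limma 3.58.1 in R 4.3.3 (lmFit and eBayes with a trend), for genes averaging 0.1 RPKM or more. The pseudocount is worth 68.8 reads for a gene of median span, so fold changes on this scale understate those of low genes. Limma voom with median-ratio scaling was run on recovered reads (mean of at least 10). P-values were adjusted by the Benjamini-Hochberg method over all genes tested. Ratios were tested with SciPy 1.17.1. Both limma fits, on RPKM and with voom, were tested on simulated reads. The 95% intervals of fold changes are limma's and reflect the spread between libraries, and the floor for Klf17 covers counting error only.

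Members and gene lists were chosen with earlier results of these data known. Named were all members, the other Klf and Sp genes, from each other list the 2 called genes with the largest change, Baz2a, and the 3 genes closest in profile to each of Klf2, Klf4 and Klf5. Other called genes of the context and marker lists were named after their values had been seen. Alternatives were other pseudocounts, filters, scalings and variance models, a replicate block, voom and leaving out each library.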

Additional observations from a re-analysis of the deposited data

How the results depend on the processing

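The number of members called lower went from 5 to 2, and that of members called higher from 1 to 0, with a filter of a mean of at least 1 RPKM, which left 4 members to test. Leaving out 1 library gave 3 to 4 members lower and 1 higher. No other setting moved these counts by over 1.5 times. Of 166 alternatives over single members, 145 kept direction and call, 14 lost the call and 7, all of Klf10, turned the sign: Klf10 was -0.010 with median-ratio scaling, -0.026 with quantile normalization and -0.036 to 0.037 without 1 library (-0.041 to 0.041 with voom). Sp2 ran from -0.0034 to 0.042 without 1 library. The cause was not tested.

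Replicate numbers were shared between the groups, and 3 of 4 WT libraries matched the ΔTAM library of their own number best. Same-numbered libraries deviated together only with correlations of 0.0238 to 0.0624, and the numbers were not taken as pairs in the main fit. With the replicate block, 2798 genes were called, beside 3229 without it, and the members' calls did not change, but those of Il6st, Stat3, Ep300, Kat2b, Hdac2 and Eomes were lost (adjusted p from 0.0564 to 0.103). For the ratios, an exact sign-flip test with the replicate block gave differences of -0.50, -0.25 and -0.25, each with an adjusted p of 0.125, the smallest it allows. Without 1 library the differences ran from -0.54 to -0.46 (Klf4 to Klf2), -0.27 to -0.23 (Klf4 to Klf5) and -0.29 to -0.22 (Klf5 to Klf2), each with an exact permutation p of 0.0571, the smallest that 3 against 4 allow.

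Voom called 5537 genes and the 1 RPKM filter left 992 called. Over 7 context lists (other Klf, Sp, upstream signals, cofactors, naive network, immediate early and 2-cell genes), counts of called genes moved by over 1.5 times in 36 of 133 alternatives. Called genes in the primed, primitive endoderm, trophectoderm and fibroblast marker lists were counted in the limma and voom fits only. Depth limits Klf17, Klf1 and Klf14, whose few reads allow no comparison.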
